A study of Homo sapiens with 27 samples.

Results

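The genes described here are those for the protein part of the cytosolic ribosome, taken by their symbols (RPL or RPS followed by a number, with RPLP0, RPLP1, RPLP2, RPSA and FAU), which gave 85 of the 27115 listed genes. Of these, 52 encode proteins of the large subunit and their paralogues, and 33 encode proteins of the small subunit, FAU included. RNA-seq had been made from 3 human diffuse large B-cell lymphoma cell lines, Karpas422, OCI-Ly1 and HBL1, each carrying a control hairpin (shCTRL) or 1 of 2 hairpins against SIRT3 (shSIRT3-1 and shSIRT3-2), and collected at day 8. SIRT3 is a mitochondrial deacylase. The hairpins were delivered by pLKO.1 lentivirus with puromycin resistance and a fluorescent reporter, and all groups, the control included, were infected cells. There were 3 libraries per group and 27 in all, and the study describes replicates of the knockdown in each line. Whether these were separate infections or cultures is not given in the sources used here, so that the p-values measure the spread between these libraries, which may be technical.

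The small subunit reads the mRNA and the large subunit joins the amino acids. The P stalk of the large subunit, made of RPLP0 with RPLP1 and RPLP2, recruits the translation factors that drive elongation. Most ribosomal protein mRNAs begin with a C followed by a run of pyrimidines, the 5′ terminal oligopyrimidine (TOP) tract, through which mTOR signalling and LARP1 control their translation and stability. These genes are also known for their many processed pseudogenes, so that short reads from them can map to several places. The values are CPM, the reads of a gene scaled to a common library total, and so are relative: fewer cells that express a gene and less RNA per cell cannot be told apart, nor can a rise of these mRNAs and a fall of the rest.

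RefSeq (GRCh38.p14) gave the transcription start of 68 of the 85 members. A C at the start with at least 4 further pyrimidines, a run of 5 or more, was found in 48 of them (70.6%) and in 5.14% of the 27305 genes with an entry. The heptamer CCGGAAG, the core bound by ETS factors, lay on either strand of the window from 250 bases before to 50 bases after the start in 24 of the 68 (35.3%, against 12.2% of all genes), and TATAAA in 7 (10.3%, against 14% of all genes). A match is a description of these letters and not of a used site. The lines that follow give 10 bases before and 20 bases from the start on, for members named further on. They run 5′ to 3′ on the gene's strand, with a pyrimidine run of 5 or more at the start in capitals. RPS19 and RPL11 have 2 listed starts each, and for genes with several the start with the longest run is shown and counted.
RPLP1, chr15:69452808-69452837, plus strand: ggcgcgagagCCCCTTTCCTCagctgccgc
RPS19, chr19:41860245-41860274, plus strand: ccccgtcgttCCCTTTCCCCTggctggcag
RPL11, chr1:23691796-23691825, plus strand: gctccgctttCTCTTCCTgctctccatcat
RPL36A, chrX:101391001-101391030, plus strand: ctcgcggtttCTTTCTTTCCgcgccgatag
RPL21, chr13:27251548-27251577, plus strand: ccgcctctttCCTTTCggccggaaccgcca
RPS26, chr12:56041908-56041937, plus strand: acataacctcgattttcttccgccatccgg
RPS28, chr19:8321486-8321515, plus strand: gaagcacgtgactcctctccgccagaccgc
RPS7, chr2:3575250-3575279, plus strand: cgccctcctcctcgcgctgtttccgcctct
RPL22, chr1:6199576-6199605, minus strand: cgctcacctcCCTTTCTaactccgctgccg
RPL22L1, chr3:170870176-170870205, minus strand: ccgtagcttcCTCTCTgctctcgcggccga
RPS27, chr1:153990752-153990781, plus strand: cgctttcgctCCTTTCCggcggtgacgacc
RPS27L, chr15:63157458-63157487, minus strand: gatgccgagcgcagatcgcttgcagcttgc
RPL7L1, chr6:42879606-42879635, plus strand: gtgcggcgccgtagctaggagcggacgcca
The paralogue RPL22L1 shared a pyrimidine start with RPL22, whereas RPS27L, a p53 target, had none although RPS27 did. RPS26 and RPS28, which rose most with shSIRT3-1, had no pyrimidine run at the listed start.

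SIRT3 itself fell with both hairpins in every line. Karpas422 held 9.78 ± 0.56 CPM of it in shCTRL (SD, n = 3 here and for the values that follow), 2.60 ± 0.17 with shSIRT3-1 and 5.32 ± 0.91 with shSIRT3-2. OCI-Ly1 held 11.5 ± 2.00, 1.64 ± 0.59 and 5.42 ± 1.18 CPM in the same order. HBL1 held 14.7 ± 1.48, 2.17 ± 0.20 and 3.26 ± 0.50 CPM. In the fit over the 3 lines its log2 fold change was -2.45 (SE 0.17) with shSIRT3-1 and -1.37 (SE 0.17) with shSIRT3-2, adjusted p = 3.8e-10 and 2.2e-06 in limma. The libraries held 28694398 to 53405456 reads on listed genes, which were 40.3% to 45.6% of the total behind the CPM. The B-cell markers MS4A1, CD79A, CD79B, PAX5 and CD22 were each at 4.55 CPM or more in every library and together at 895 CPM or more, whereas CD3E, CD2, LYZ, CD14, ITGAM, KRT8, KRT18 and COL1A1 stayed under 1 CPM throughout. Over the 3 lines, where 16.3% of all tested genes rose and 21.7% fell with shSIRT3-2 and 15.6% and 22.3% with shSIRT3-1, 3 of these 5 B-cell markers fell with shSIRT3-2, whose libraries summed to 895 to 1857 CPM beside 1536 to 2156 in shCTRL, and 1 rose with shSIRT3-1. Of the 3 plasma cell markers (SDC1, PRDM1 and XBP1), 2 rose and 1 fell with shSIRT3-2 over the 3 lines, with a median log2 fold change of 1.15, and none rose and 1 fell with shSIRT3-1, with a median of -0.19. They summed to 12.7 to 176 CPM in shCTRL, 14.6 to 109 with shSIRT3-1 and 17.7 to 86.7 with shSIRT3-2. CD247 among the T-cell markers reached 37.4 CPM, the 4 myeloid markers summed to at most 1.24 CPM, and COL1A2 among the epithelial and fibroblast markers reached 62.0 CPM. The part of these in the results was not tested.

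The members took up between 2.50% and 6.45% of the reads on genes. In HBL1 the share was 4.56%, 4.70% and 5.43% in the shCTRL libraries, 6.24%, 6.45% and 5.98% with shSIRT3-1, and 5.18%, 5.09% and 5.11% with shSIRT3-2. All 3 libraries with shSIRT3-1 thus lay above all 3 controls, and those with shSIRT3-2 lay among them. In Karpas422 the share was 3.25%, 3.21% and 3.28% in shCTRL, 3.97%, 4.01% and 3.49% with shSIRT3-1, and 3.23%, 3.25% and 2.50% with shSIRT3-2. The groups with shSIRT3-1 and shCTRL again did not overlap, while the third library with shSIRT3-2 lay below all others of the line. In OCI-Ly1 the share was 3.87%, 4.17% and 5.25% in shCTRL, 4.37%, 4.20% and 4.71% with shSIRT3-1, and 4.42%, 3.75% and 4.30% with shSIRT3-2, and these groups overlapped, with the third control library above the rest.

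**Figure D1:**
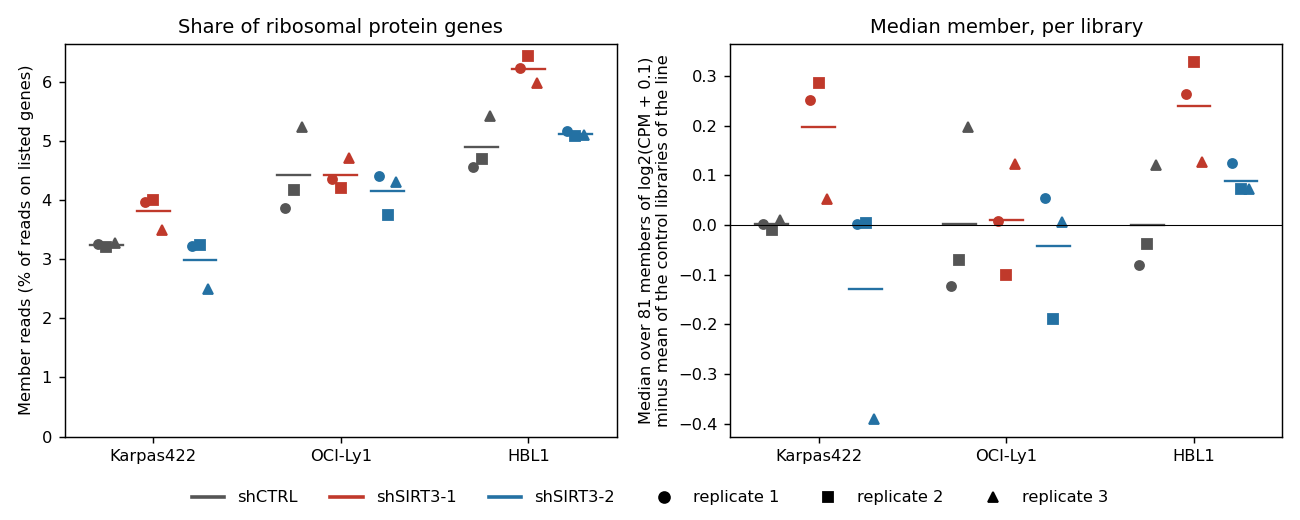
Left, share of the reads on listed genes that fell on the 85 members (%), for each of the 27 libraries by cell line, hairpin (colour) and replicate (symbol), with the group mean as a line. Right, median over the 81 tested members of log2(CPM + 0.1) minus the mean of the 3 shCTRL libraries of the same line; the medians ran from -0.39 in the third Karpas422 library with shSIRT3-2 to 0.33 in the second HBL1 library with shSIRT3-1.

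The listed level of a member followed how much of its coding sequence is unique. Each coding sequence was divided into all windows of 50 bases, the read length, and the share of unique windows was counted. A window within 1 exon was unique if found at a single place in the GRCh37 genome. A window across an exon junction was unique if it was found nowhere in that genome. The 12 members with 90% or more unique windows that are no L-suffix paralogues had a mean of 599 to 1344 CPM per kb of coding length over the 9 shCTRL libraries, with a median of 884. The 13 members with under 10% unique windows had 1.12 to 145 CPM per kb, with a median of 21.1. Over the 78 members that are no such paralogues, Spearman's rho between level and unique share was 0.87, a description across genes that share the same libraries. Pooled over the lines, RPL37A had the highest mean at 1344 CPM per kb (SD 194, n = 9), followed by RPL30 at 1269 (SD 273) and RPLP1 at 1213 (SD 610). These did not differ beyond their spread, which includes differences between the lines, and the order is not that of each line. Reads were counted on whole genes but divided by coding length, so the order also depends on untranslated parts. The reference transcript has 2992 bases with 279 coding for RPL37A, 498 with 348 for RPL30 and 1174 with 345 for RPLP1. RPLP1 had means of 193, 394 and 669 CPM in the controls of Karpas422, OCI-Ly1 and HBL1, and RPL37A had 362, 328 and 435. The levels listed for RPS26, RPS28, RPL36A, RPL21 and RPS10, none of which has a unique window, and for RPL7 at 0.287% cannot be read as the abundance of their mRNAs, and reads of RPL36A, RPS10 and RPL17 can also be counted to the read-through genes that overlap their coding sequence.

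**Figure D2:**
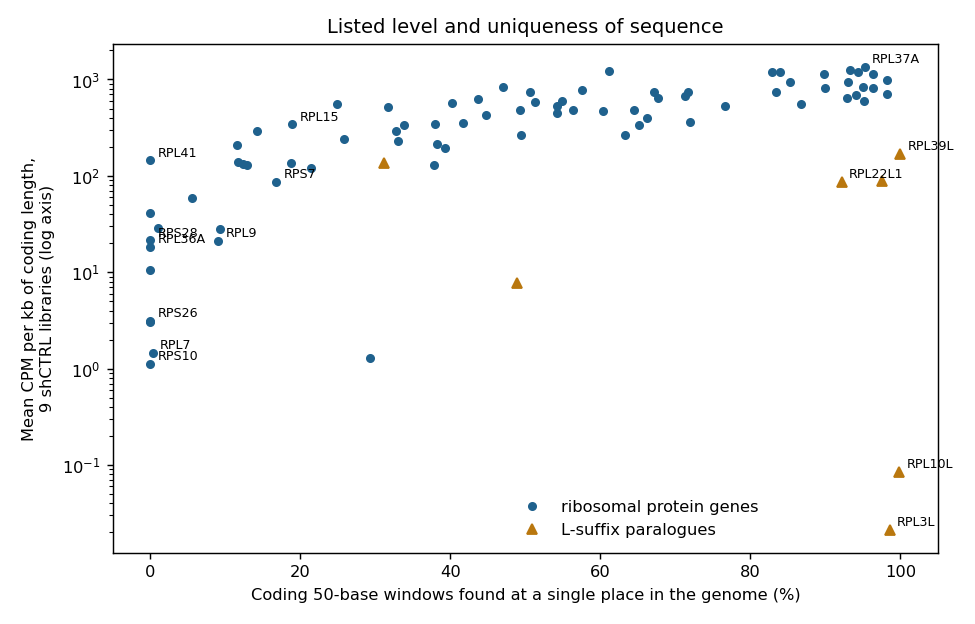
Mean CPM per kb of coding length over the 9 shCTRL libraries (log axis) against the share of unique coding 50-base windows (%), 1 point per member, with L-suffix paralogues as triangles. The share on the axis includes windows across exon junctions that are found nowhere in the genome. The 13 members under 10% lie at 1.12 to 145 CPM per kb and the 12 with 90% or more that are no paralogues at 599 to 1344.

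Of the 85 members, 81 reached 1 CPM in at least 3 of the 27 libraries and were tested. RPL3L, the paralogue used in heart and skeletal muscle, was at 0.0943 CPM or less in every library, and RPL10L, the testis paralogue, at 0.119 CPM or less. RPS10 ran from 0.27 to 0.907 CPM and was not tested either.

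The first comparison asked how the members responded to each SIRT3 hairpin over the 3 lines, in a fit with line and hairpin as terms. With shSIRT3-1, 35 of the 81 members rose (43.2%, against 15.6% of the 13076 genes tested) and 3 fell (3.70%, against 22.3% of all genes), at an adjusted p under 0.05. The median log2 fold change of the members was 0.15, from -0.54 to 0.66, beside -0.05 over all genes. With shSIRT3-2, 6 rose (7.41%, against 16.3% of all genes) and 4 fell (4.94%, against 21.7%), and the median was -0.03, the same as over all genes. Only RPS26 and RPS28 rose past 1.5-fold with shSIRT3-1 (2 of 81, 2.47%, against 3.92% of all genes), and none fell past it (0.00%, against 9.09% of all genes). With shSIRT3-2 no member passed that fold in either direction (0.00%, against 3.29% of all genes upward and 10.2% downward). The hairpins were compared with the same control libraries, so that their values stand side by side and are not independent.

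**Figure D3:**
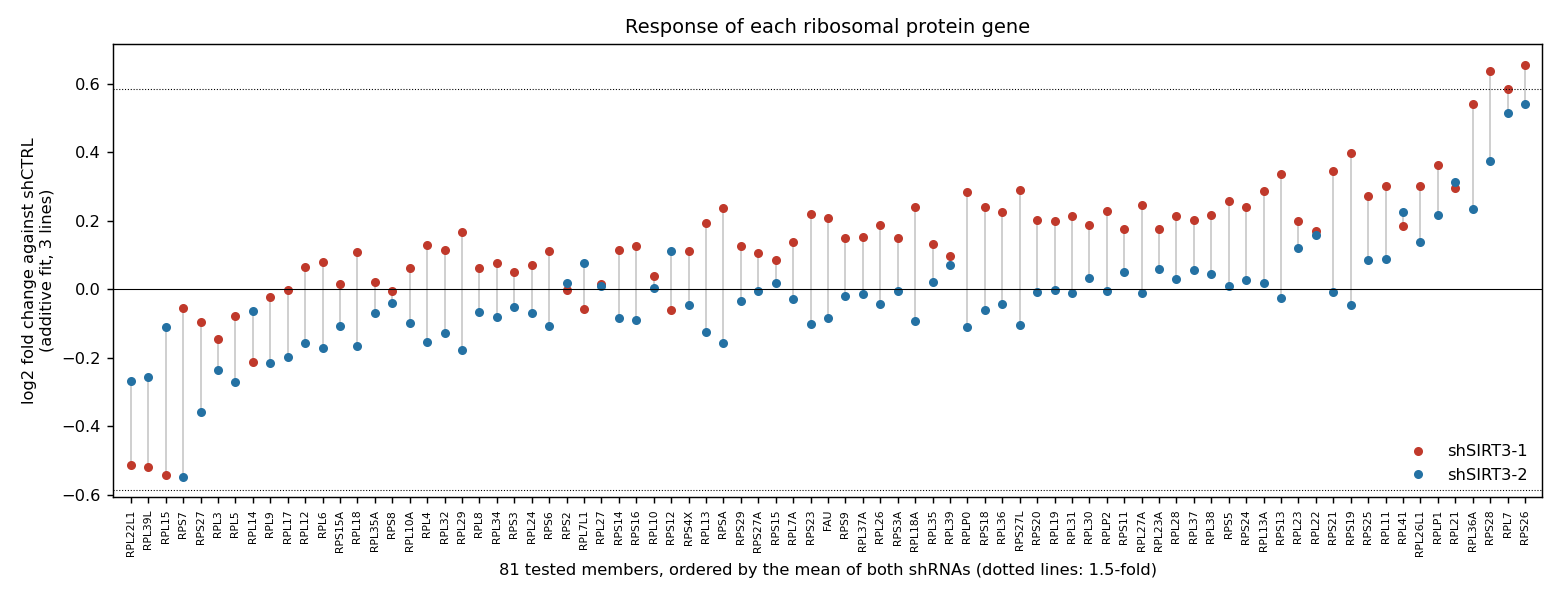
Log2 fold change against shCTRL in the fit over the 3 lines for each of the 81 tested members, ordered by the mean of the hairpins, with shSIRT3-1 in red and shSIRT3-2 in blue and dotted lines at 1.5-fold. The red points lie above 0 for 67 members and the blue points for 29.

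The direct comparison of the hairpins showed the same gap: 31 members were lower with shSIRT3-2 than with shSIRT3-1 (38.3%, against 15.1% of all genes), 2 were higher (2.47%, against 16.6%), and the median difference was -0.17, beside 0.00 over all genes. SIRT3 was higher by 1.08 (SE 0.17) on the log2 scale with shSIRT3-2 than with shSIRT3-1, adjusted p = 4.6e-05. Without Karpas422 or HBL1, 12 and 14 members passed in this comparison of hairpins, and 12 and 9 without the first or the second replicate, against 33. With shSIRT3-1, 20 of the 50 tested RPL genes rose and 3 fell (median 0.16), and 15 of the 31 tested RPS genes with FAU rose and none fell (median 0.15). Of the 47 tested members with a pyrimidine start the median was 0.19 with shSIRT3-1 and -0.02 with shSIRT3-2, and of the 19 without one 0.08 and -0.10, a description that was not tested.

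These counts moved by over 1.5 times with the libraries and with the lines left out. Throughout, counts with libraries, replicates or lines left out are given without the shares of all genes in the same fits. They show how the calls of members moved, and not how the members stood beside all genes. Leaving the first or the second replicate out of every group left 11 and 9 members past the threshold with shSIRT3-1, against 38, whereas leaving out the third gave 54. With shSIRT3-2 the counts were 5 and 1 against 10, and 14 without the third, and 4 without OCI-Ly1. Without HBL1, 8 members rose and 2 fell with shSIRT3-1, and without Karpas422, 19 rose and 3 fell. The members are short, with a median transcript of 785 bases beside 2654 over all genes, and with each library's trend in length and GC content removed, 21 rose and 2 fell and the median was 0.10. The shares and the median of all genes after this removal are not given here.

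Among the P-stalk genes, RPLP1 was at 194, 190 and 195 CPM in the shCTRL libraries of Karpas422, 257, 255 and 215 with shSIRT3-1, and 242, 246 and 213 with shSIRT3-2. In OCI-Ly1 it was at 364, 379 and 438, then 440, 450 and 471, then 476, 482 and 479 CPM in the same order of groups. In HBL1 it was at 623, 635 and 749, then 878, 935 and 1150, then 715, 648 and 772. Every library with shSIRT3-1 lay above every control of its line, as did every library with shSIRT3-2 in Karpas422 and OCI-Ly1, while in HBL1 the latter overlapped with the controls, each being higher than the control of the same number. RPLP1 rose by 0.36 (SE 0.08) with shSIRT3-1 and 0.22 (SE 0.08) with shSIRT3-2 on the log2 scale, adjusted p = 0.00066 and 0.029. RPLP0 rose with shSIRT3-1 (0.29, SE 0.08, adjusted p = 0.0059) and had a log2 fold change of -0.11 (SE 0.08) with shSIRT3-2, adjusted p = 0.28. RPLP2 rose with shSIRT3-1 (0.23, SE 0.09, adjusted p = 0.048) and had 0.00 with shSIRT3-2.

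Of the small subunit, RPS19, a frequent site of mutation in Diamond-Blackfan anaemia, was at 544, 542 and 559 CPM in the HBL1 controls, 823, 812 and 795 with shSIRT3-1, and 603, 565 and 577 with shSIRT3-2. In Karpas422 it was at 399, 374 and 331, then 479, 491 and 427, then 379, 373 and 242 CPM. In OCI-Ly1 it was at 532, 538 and 646, then 675, 666 and 745, then 588, 495 and 577. In all 3 lines the shSIRT3-1 libraries lay above all controls and the shSIRT3-2 libraries did not, except in HBL1. The log2 fold change was 0.40 (SE 0.08, adjusted p = 0.00034) with shSIRT3-1 and -0.05 (SE 0.08, adjusted p = 0.68) with shSIRT3-2, and the difference between hairpins was -0.44 (SE 0.08, adjusted p = 0.00014). RPS19 has 96.4% unique windows. RPSA, which also binds laminin as a surface protein, rose with shSIRT3-1 (0.24, SE 0.08, adjusted p = 0.020) and had -0.16 (SE 0.08) with shSIRT3-2. RPSA has 12.4% unique windows. FAU, whose product is cleaved into a ubiquitin-like protein and a small subunit protein, rose with shSIRT3-1 (0.21, SE 0.06, adjusted p = 0.0062) and had -0.08 (SE 0.06) with shSIRT3-2.

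The 5 members with the highest mean response were RPS26, RPL7, RPS28, RPL36A and RPL21. All 5 have under 1% unique windows, and all but RPS28 in HBL1 were listed at under 13 CPM. RPS26 was at 0.863, 0.952 and 1.00 CPM in the shCTRL libraries of Karpas422, 1.94, 1.5 and 1.69 with shSIRT3-1, and 1.62, 1.42 and 1.15 with shSIRT3-2. In HBL1 it was at 0.863, 0.723 and 0.558, then 1.68, 1.53 and 1.16, then 1.41, 1.40 and 1.43 CPM, again without overlap with the controls. In OCI-Ly1 it was at 1.84, 1.43 and 1.52, then 1.90, 1.96 and 1.80, then 1.71, 2.04 and 1.76, and both hairpins overlapped with the controls. RPS26 rose by 0.66 (SE 0.12) and 0.54 (SE 0.12) on the log2 scale, adjusted p = 0.00012 and 0.00095. In HBL1 its log2 fold changes were 0.94 and 0.91 (SE 0.21 each), but it reached 1 CPM in none of the 3 controls there and was tested only through the groups where it is high, so that these values are a description.

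RPS28 was at 0.769, 0.840 and 0.743 CPM in the Karpas422 controls and 1.37, 1.31 and 1.32 with shSIRT3-1, and at 10.7, 10.9 and 12.6 CPM in the HBL1 controls and 17.4, 17.4 and 19.7 with shSIRT3-1, with no overlap in either line. It rose by 0.64 (SE 0.08, adjusted p = 2.0e-06) with shSIRT3-1 and 0.37 (SE 0.08, adjusted p = 0.00089) with shSIRT3-2. RPL7 rose by 0.58 (SE 0.18, adjusted p = 0.013) and 0.51 (SE 0.18, adjusted p = 0.027), and RPL21 by 0.30 (SE 0.11, adjusted p = 0.030) and 0.31 (SE 0.11, adjusted p = 0.023). RPL36A rose by 0.54 (SE 0.12, adjusted p = 0.0013) with shSIRT3-1 and had 0.24 (SE 0.12, adjusted p = 0.14) with shSIRT3-2. As an alternative chosen after the data were seen, the 12 tested members with under 10% unique windows were left out. Of the other 69, 29 still rose and 3 fell with shSIRT3-1 (median 0.15), but 1 rose and 3 fell with shSIRT3-2 (median -0.04). Of the 6 that rose with shSIRT3-2, RPS26, RPL7, RPS28, RPL21 and RPL41 have under 10% unique windows and RPLP1 has 61.1%. The summed CPM of the 31 listed ribosomal protein pseudogenes was 298 to 336 in the HBL1 controls and 373 to 420 with shSIRT3-1, whereas reads on genes were 43.9% to 45.1% and 40.3% to 43.1% of the total, and the part of either in these results was not tested.

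**Figure D4:**
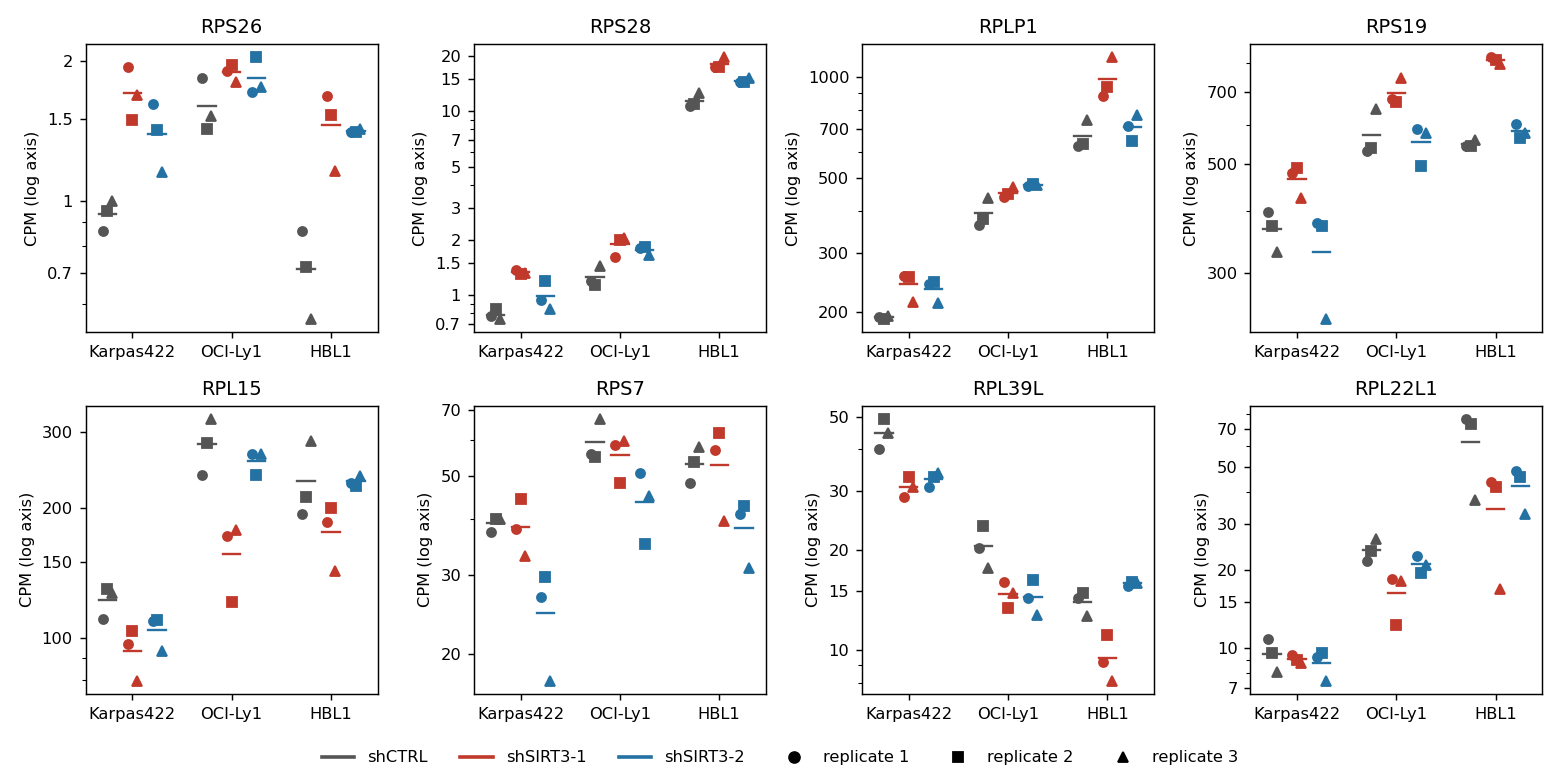
CPM (log axis) of 8 members in each of the 27 libraries, by cell line, hairpin (colour) and replicate (symbol), with group means as lines. In the upper row RPS26, RPS28, RPLP1 and RPS19 have higher means with shSIRT3-1 than in shCTRL in all 3 lines, and in the lower row RPL15, RPL39L and RPL22L1 have lower ones, whereas RPS7 is lower with shSIRT3-2.

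The members that fell were few and did not follow 1 pattern. RPL15, a large subunit core protein, was at 238, 283 and 322 CPM in the OCI-Ly1 controls, 172, 121 and 178 with shSIRT3-1, and 268, 239 and 266 with shSIRT3-2. In Karpas422 it was at 111, 130 and 127, then 97, 104 and 79.7, then 109, 110 and 93.3 CPM. The shSIRT3-1 libraries lay below all controls in both lines, whereas in HBL1 (194, 212 and 287, then 186, 200 and 143) they overlapped, each being lower than the control of the same number. RPL15 fell by 0.54 (SE 0.10, adjusted p = 0.00020) on the log2 scale with shSIRT3-1 and had -0.11 (SE 0.10, adjusted p = 0.41) with shSIRT3-2. RPL15 has 18.9% unique windows, so that most windows of its coding sequence also occur elsewhere in the genome.

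RPS7, a small subunit protein that can also bind MDM2, showed the opposite order of hairpins. It was at 37.4, 39.9 and 40.1 CPM in the Karpas422 controls, 38.0, 44.3 and 33.0 with shSIRT3-1, and 26.8, 29.7 and 17.4 with shSIRT3-2. In OCI-Ly1 it was at 55.9, 55.0 and 66.9, then 58.5, 48.2 and 59.8, then 50.6, 35.1 and 44.9, and in HBL1 at 48.1, 53.6 and 57.9, then 56.9, 62.3 and 39.5, then 41.0, 42.7 and 31.0. The shSIRT3-2 libraries lay below all controls in every line, and the shSIRT3-1 libraries overlapped with them in every line. RPS7 fell by 0.55 (SE 0.11, adjusted p = 0.00026) with shSIRT3-2 and had -0.05 (SE 0.11, adjusted p = 0.71) with shSIRT3-1, a difference of -0.49 (SE 0.11, adjusted p = 0.00093). RPS7 has 16.8% unique windows, so that most of its windows also occur elsewhere. RPS27 fell with shSIRT3-2 (-0.36, SE 0.11, adjusted p = 0.016) and had -0.09 (SE 0.11) with shSIRT3-1, and RPL5, which with RPL11 carries the 5S rRNA, fell with shSIRT3-2 (-0.27, SE 0.10, adjusted p = 0.031) and had -0.08 (SE 0.10) with shSIRT3-1.

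The L-suffix paralogues, most of which can stand in for their partner in the ribosome, while RPL7L1 is known as a factor of large subunit assembly, did not move together. RPL39L, abundant in testis, was at 40, 49.2 and 44.7 CPM in the Karpas422 controls, 28.8, 33.1 and 30.8 with shSIRT3-1, and 30.7, 33.0 and 33.9 with shSIRT3-2. In OCI-Ly1 it was at 20.2, 23.6 and 17.6, then 16.0, 13.4 and 14.8, then 14.4, 16.2 and 12.8, and in HBL1 at 14.3, 14.9 and 12.6, then 9.21, 11.1 and 8.10, then 15.6, 16.0 and 15.9. All groups with a SIRT3 hairpin lay below their controls, except HBL1 with shSIRT3-2, which lay above them. RPL39L fell by 0.52 (SE 0.10, adjusted p = 0.00028) with shSIRT3-1 and by 0.25 (SE 0.10, adjusted p = 0.049) with shSIRT3-2. The F test of the interaction of line and hairpin gave it an adjusted p of 0.0050.

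RPL22L1 was at 76.6, 73.3 and 37.2 CPM in the HBL1 controls, 43.9, 41.9 and 17.0 with shSIRT3-1, and 48.3, 45.8 and 32.9 with shSIRT3-2, so that the third library was the lowest of each group and the groups overlapped. The replicate numbers paired the libraries in HBL1, and RPL22L1 was lower than the control of the same number in all 3 libraries with each hairpin. It fell by 0.51 (SE 0.17, adjusted p = 0.017) over the 3 lines with shSIRT3-1 and had -0.27 (SE 0.17, adjusted p = 0.21) with shSIRT3-2, while its partner RPL22 rose with shSIRT3-1 (0.17, SE 0.07, adjusted p = 0.0499) and had 0.16 (SE 0.07, adjusted p = 0.066) with shSIRT3-2. RPL22L1 has 92.2% unique windows and RPL22 has 11.5%. RPL26L1 rose with shSIRT3-1 (0.30, SE 0.10, adjusted p = 0.015) and had 0.14 (SE 0.10) with shSIRT3-2. RPS27L rose with shSIRT3-1 (0.29, SE 0.11, adjusted p = 0.036) and had -0.11 (SE 0.11) with shSIRT3-2. RPL7L1 had -0.06 (SE 0.09) and 0.08 (SE 0.09) over the 3 lines, with the lines going different ways.

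Taken line by line, HBL1 gave most of the calls. With shSIRT3-1, 33 of 81 members rose in HBL1 (40.7%, against 14.9% of 11862 genes) and RPL39L alone fell (1.23%, against 25.1%), and the median was 0.27 beside -0.11 over all genes. In 40 members (49.4%, against 20.1% of all genes) the 3 libraries with shSIRT3-1 lay above all 3 controls. RPS26, RPL36A, RPS28, RPS13 and RPS21 rose past 1.5-fold (6.17%, against 8.83% of all genes), and RPS26, tested only through the hairpin libraries, had to be high there. RPS21, which has 95.1% unique windows, was at 232, 229 and 243 CPM in the controls and 355, 355 and 366 with shSIRT3-1, and rose by 0.61 (SE 0.08, adjusted p = 0.00077). RPS13 was at 182, 186 and 207 CPM and then 283, 277 and 321, and rose by 0.62 (SE 0.10, adjusted p = 0.0017).

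With shSIRT3-2 in HBL1, 5 members rose (6.17%, against 13.5% of all genes), namely RPS26, RPL21, RPL36A, RPL7L1 and RPS28, and RPS27 fell (1.23%, against 21.3%). RPS26 and RPL21 rose past 1.5-fold (2.47%, against 7.51% of all genes), RPS26 with the same limit. The median was 0.09 beside -0.06. The 34 calls with shSIRT3-1 in HBL1 became 16 or 12 without the first or second shCTRL library, 19 without the first or the second shSIRT3-1 library, and 21 or 20 without the first or second shSIRT3-2 library, which enter through the shared spread. They became 0 when the first or the second replicate was left out of all groups, and 71 without the third. The 6 calls with shSIRT3-2 became 3 without the first or second shCTRL library, 2 or 3 without the second or the third shSIRT3-2 library, 14 without the third shSIRT3-1 library, 0 without the first or second replicate of all groups, and 46 without the third.

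In Karpas422, 11 members rose with shSIRT3-1 (13.6%, against 11.6% of 11235 genes) and RPL39L, RPL15 and RPL7L1 fell (3.70%, against 22.2%), with a median of 0.19 beside -0.08 over all genes. For this hairpin edgeR's likelihood ratio test called 25 of the 81 higher and 1 lower (beside 16.2% and 17.7% of all genes). With the replicate number as a block, 17 were higher and 3 lower (beside 13.1% and 25.5%). The 3 libraries with shSIRT3-1 lay above the controls in 35 members (43.2%, against 19.0% of all genes). RPL7, RPS26, RPS28 and RPL12 rose past 1.5-fold (4.94%, against 4.45%). RPL7, RPS26 and RPS28 reached 1 CPM in 0, 1 and 0 of the 3 control libraries, so that they entered the test of this line through the hairpin groups where they are high, and their rise there is a description. RPL12, at the base of the P stalk, was at 120, 113 and 114 CPM in the controls and 190, 183 and 168 with shSIRT3-1, and rose by 0.64 (SE 0.13, adjusted p = 0.0059). With shSIRT3-2 no member rose (0.00%, against 14.7% of all genes) and RPS7, RPL39L and RPL5 fell (3.70%, against 16.4%). At an unadjusted p under 0.05 the latter counts were 2 and 6 (2.47% and 7.41%, against 21.2% and 22.3% of all genes), and edgeR's likelihood ratio test called 1 higher and 4 lower (beside 15.9% and 17.3% of all genes). The 14 calls with shSIRT3-1 became 8 without the second control library, 6 or 9 without the first or second shSIRT3-1 library, 27 without the third shSIRT3-2 library, 1 without the first or second replicate of all groups and 51 without the third. The 3 calls with shSIRT3-2 became 1 without the second control library, 0 without the first or second replicate of all groups and 8 without the third. Without the third shSIRT3-2 library the median with that hairpin was 0.00 in place of -0.14.

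In OCI-Ly1, RPL15 alone fell with shSIRT3-1 (1.23%, against 3.66% of 11205 genes) and RPL39L alone with shSIRT3-2 (1.23%, against 5.60%). No member rose with either hairpin (0.00%, against 3.65% and 3.81% of all genes). At an unadjusted p under 0.05, 3 members were higher and 3 lower with shSIRT3-1 (3.70% each, against 14.3% and 12.9% of all genes) and 3 higher and 4 lower with shSIRT3-2 (3.70% and 4.94%, against 13.7% and 15.2%). For these hairpins edgeR's likelihood ratio test called none higher (beside 5.63% and 6.01% of all genes) and 3 and 2 lower (beside 7.83% and 9.86%). It used reads whose recovery was treated as uncertain in the third shCTRL and the first shSIRT3-2 library. The medians were 0.01 and -0.04, beside 0.02 and 0.01 over all genes. In this line the replicate numbers paired the libraries by the rule used. With the number as a block 3 and 2 members fell (beside 6.24% and 8.87% of all genes) and none rose (beside 6.76% and 7.04%). Leaving out the first control library gave 3 and 2 calls, and leaving out the second or the third gave 0 and 0. The call of RPL15 was also lost without the second or the third shSIRT3-1 library, and that of RPL39L without any 1 of the libraries with either hairpin.

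A direct test of whether the response differed between the lines (interaction of line and hairpin, F test in limma) passed for 6 of 81 members (7.41%, against 41.8% of all genes), namely RPL39L, RPL7L1, RPL36, RPL38, RPS23 and RPL12. RPL36, at 95.2% unique windows, was at 177, 181 and 186 CPM in the Karpas422 controls and 258, 258 and 232 with shSIRT3-1, and had log2 fold changes with that hairpin of 0.46 (SE 0.11) in Karpas422, 0.01 (SE 0.12) in OCI-Ly1 and 0.20 (SE 0.08) in HBL1 (interaction adjusted p = 0.014). RPL7L1 had 0.39 (SE 0.11) with shSIRT3-2 in HBL1 and -0.32 (SE 0.11) in Karpas422 (interaction adjusted p = 0.0055). For the other members the test of a difference between lines did not pass, so that a call in 1 line and none in another is not a tested difference there. Without the first, second or the third replicate of all groups, 0, 1 and 14 members passed.

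The members were also compared between the lines in the control libraries. In HBL1 against Karpas422, 55 members were higher (67.9%, against 31.4% of 12607 genes) and 5 lower (6.17%, against 36.4%), with a median log2 difference of 0.50 beside -0.07 over all genes. In HBL1 against OCI-Ly1, 32 were higher (39.5%, against 35.6%) and 9 lower (11.1%, against 31.7%), with a median of 0.22 beside 0.05. In Karpas422 against OCI-Ly1, 4 were higher (4.94%, against 35.4%) and 36 lower (44.4%, against 28.2%), with a median of -0.27 beside 0.08. The median member thus was highest in HBL1 and lowest in Karpas422, in comparisons that share their control libraries. Over the libraries left out in turn the count of HBL1 against OCI-Ly1 fell from 41 to 27 and 26 without the first or the second replicate of all lines.

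The largest of these differences belonged to a handful of genes. RPS25, a small subunit protein used by several viral internal ribosome entry sites, was at 305, 316 and 358 CPM in HBL1, 169, 174 and 230 in OCI-Ly1 and 66.3, 64.2 and 63.6 in Karpas422, with no overlap between the lines. Its log2 difference was 2.33 (SE 0.13, adjusted p = 7.5e-08) between HBL1 and Karpas422 and -1.54 (SE 0.13, adjusted p = 2.9e-06) between Karpas422 and OCI-Ly1. RPL8 was at 1322, 1449 and 1765 CPM in OCI-Ly1. HBL1 held 702, 727 and 783 CPM and Karpas422 held 513, 521 and 552, and the difference between Karpas422 and OCI-Ly1 was -1.51 (SE 0.17, adjusted p = 1.7e-05). RPL9 went the other way, at 22.2, 24 and 24 CPM in Karpas422 against 4.65, 4.67 and 7.56 in OCI-Ly1 (2.07, SE 0.19, adjusted p = 3.7e-06). RPL9 has 9.06% unique windows, and RPL8 94.3%.

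Paralogues were among the most line-dependent members. RPL22L1 was higher in HBL1 than in Karpas422 (10.8, 9.56 and 8.08 CPM) by 2.64 on the log2 scale (SE 0.25, adjusted p = 3.8e-06). RPL7L1 was at 207, 214 and 193 CPM in HBL1, 59.7, 50.7 and 55.6 in OCI-Ly1 and 47.7, 63.2 and 50.4 in Karpas422, which puts HBL1 above OCI-Ly1 by 1.89 and above Karpas422 by 1.94 (SE 0.12 each, adjusted p = 2.3e-07 and 1.7e-07). RPL39L had the opposite order and was lower in HBL1 than in Karpas422 (-1.67, SE 0.14, adjusted p = 1.2e-06). RPS28 was higher in HBL1 than in Karpas422 by 3.70 (SE 0.16, adjusted p = 8.0e-09) and than in OCI-Ly1 by 3.09 (SE 0.16, adjusted p = 3.7e-08), and RPS27 than in OCI-Ly1 by 1.60 (SE 0.26, adjusted p = 0.00027), and neither of these has a unique window.

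**Figure D5:**
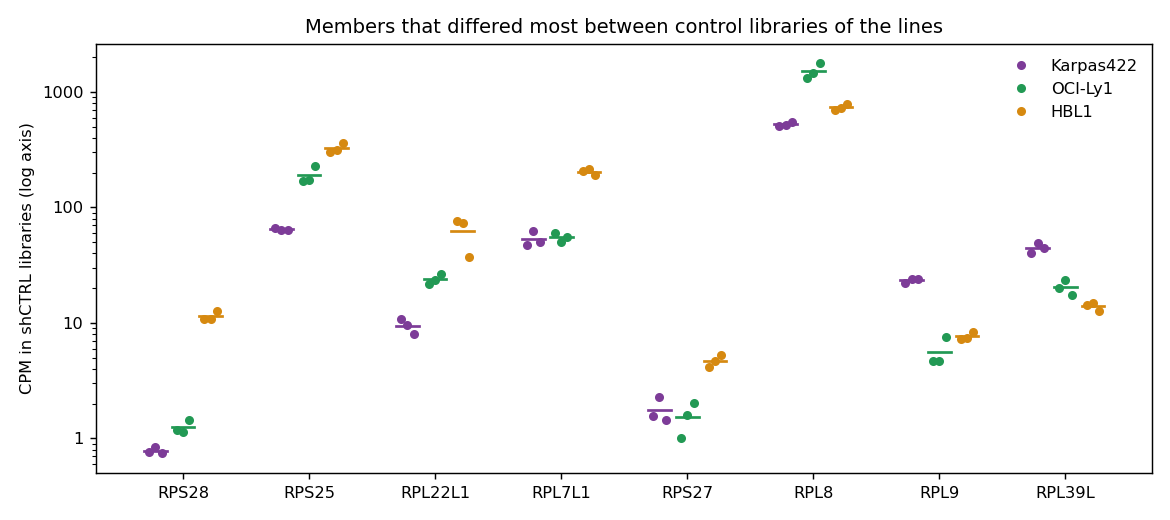
CPM (log axis) in the 3 shCTRL libraries of each line for 8 members described in the text, with group means as lines. RPS28, RPS25, RPL22L1, RPL7L1 and RPS27 are highest in HBL1, RPL8 in OCI-Ly1, and RPL9 and RPL39L in Karpas422.

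Other genes of the pathway were counted in 3 lists, beside which 15.6% of all tested genes rose and 22.3% fell with shSIRT3-1 and 16.3% rose and 21.7% fell with shSIRT3-2, with medians of -0.05 and -0.03. Of 19 other mRNAs known to carry a TOP tract, 1 rose and 5 fell with shSIRT3-1 (median -0.10), and none rose and 5 fell with shSIRT3-2 (median -0.09), and 5 of 19 is near the share of all genes that fell. Taken by line with shSIRT3-1, 3 of the 19 rose and 1 fell in HBL1 (median -0.03), 2 rose and 2 fell in Karpas422 (median 0.04) and none passed the test in OCI-Ly1 (median -0.04). Over the 3 lines, those that fell with each hairpin included the elongation factor EEF2 (-0.30, SE 0.11, adjusted p = 0.035, and -0.43, SE 0.11, adjusted p = 0.0041) and the initiation factor EIF4B (-0.25, SE 0.08, adjusted p = 0.018, and -0.29, SE 0.08, adjusted p = 0.0082). SNHG5, a host of small nucleolar RNAs, fell by 0.27 and by 0.39 (SE 0.09 each). Of 43 ribosome biogenesis genes, 13 rose and 3 fell with shSIRT3-1 (median 0.14) and 16 rose and 2 fell with shSIRT3-2 (median 0.20). With shSIRT3-1, 2 rose and 2 fell in HBL1 alone (median -0.05), where 14.9% of all genes rose and 25.1% fell. In Karpas422 15 rose and 4 fell (median 0.22), beside 11.6% and 22.2% of all genes, and in OCI-Ly1 6 rose and none fell (median 0.22), beside 3.65% and 3.66%. The difference between the lines was not tested for any of these lists. The biogenesis list was led by RRP9, of the U3 snoRNP, at 0.67 and 0.70 (SE 0.16 each, adjusted p = 0.0020 and 0.0013). NOP16 rose by 0.54 and 0.60 (SE 0.17 each) and TSR1 by 0.49 and 0.52 (SE 0.11 each). Of 10 genes that act upstream of TOP mRNAs, 2 rose and 1 fell with shSIRT3-1 and 3 rose and 3 fell with shSIRT3-2. By line with shSIRT3-1, 4 rose and 1 fell in HBL1 (median 0.37) and 1 rose and 1 fell in Karpas422 (median -0.02). None passed in OCI-Ly1 (median 0.09), and the shares of all genes by line are those given above. Over the 3 lines EIF4EBP1, an inhibitor of cap-dependent initiation that mTOR phosphorylates, fell by 1.76 (SE 0.32, adjusted p = 0.00011) and by 1.60 (SE 0.32, adjusted p = 0.00033). RPS6KB2 rose by 0.26 and 0.34 (SE 0.09 each), and RHEB rose with shSIRT3-2 (0.45, SE 0.11, adjusted p = 0.0019) and had 0.17 with shSIRT3-1.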

How the data were processed

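RNA-seq libraries (TruSeq, paired-end, HiSeq2000) had been aligned by the authors with STAR to hg19 and counted with Rsubread on RefSeq genes, and how reads mapping to several places were counted is not given in the sources used here. The deposited values are named FPKM, but within each library all (100%) were whole multiples, within 0.01, of 1 step that did not depend on the gene, so they were taken as CPM as deposited by the authors, relative to a total larger than the reads on listed genes. Whole reads were recovered from the step and used in alternatives only. In 2 OCI-Ly1 libraries (shCTRL replicate 3 and shSIRT3-2 replicate 1) the recovery was treated as uncertain, although all their values (100%) were whole multiples as well. Log2(CPM + 0.1) of genes with at least 1 CPM in at least 3 fitted libraries was tested in limma 3.58.1 (R 4.3.3, trended variance, two-sided, Benjamini-Hochberg over all genes), with line and hairpin as terms over 27 libraries, with hairpin within each line, and with line in the shCTRL libraries. Fold changes are on the log2(CPM + 0.1) scale, which understates changes of low genes. A call is an adjusted p under 0.05, and a fold call also exceeds 1.5. Alternatives were a pseudocount of 1, no filter, TMM and quantile scaling, edgeR 4.0.16, libraries, replicates or lines left out, the replicate block, and the removal of length and GC trends. The fits were tested on simulated counts.

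Members and lists were chosen with earlier results of these data known. The named genes were SIRT3, the 5 lowest and 5 highest members by the mean of both hairpins, those past the fold with both, tested paralogues, the 3 smallest interaction p-values, the 3 largest differences per pair of lines, the stalk genes, RPSA, FAU and the 3 leading genes of other lists. Others (RPS10, RPS13, RPS19, RPS21, RPS23, RPL5, RPL12, RPL22, RPL37A, RPL38 and RPL41 among them) were named after their values were seen. A few listed genes are not reported here. Lists of other cell types (plasma, T, myeloid, epithelial and fibroblast) were checked, and GENCODE v44 lifted to GRCh37 gave lengths and windows. The replicate numbers of the labels were checked by the correlation of deviations from the group means: in OCI-Ly1 and HBL1 every pair had a correlation above 0.1 (lowest 0.109 and 0.217), in Karpas422 8 of 9 pairs. No replicates were duplicates: the lowest chi-square per degree of freedom within a group was 6.74. It lay between replicates 1 and 2 of the HBL1 controls, beside 91.7 and 59.3 with replicate 3. In HBL1 that pair gave 18.9 with shSIRT3-1, beside 239 and 282, and 9.02 with shSIRT3-2, beside 40.6 and 53.9. Each hairpin also gave close pairs in Karpas422 (11.7 and 18.1, replicates 1 and 2) and OCI-Ly1 (11.3 and 10.6, replicates 1 and 3). In their controls the lowest values were 51.1 and 100. Whether close pairs are technical repeats was not tested. Figures were drawn with matplotlib 3.10.9.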

Additional observations from a re-analysis of the deposited data

Results flagged for a closer look

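The response to the hairpins differed between the 3 lines for 6 of 81 members (7.41%, against 41.8% of 13076 genes). This was by the F test of the interaction in limma over 27 libraries. RPL39L (adjusted p = 0.0050) fell with shSIRT3-2 in Karpas422 and OCI-Ly1 (-0.45 and -0.50) and had 0.19 in HBL1, where all 3 libraries lay above the controls. RPL7L1 (adjusted p = 0.0055) fell with shSIRT3-1 in Karpas422 (-0.36) and rose with shSIRT3-2 in HBL1 (0.39). RPL36 (adjusted p = 0.014) and RPL38 (adjusted p = 0.023), both with over 90% unique windows, rose with shSIRT3-1 in Karpas422 (0.46 and 0.42) and had 0.01 and -0.07 in OCI-Ly1. RPS23 (adjusted p = 0.038) rose with shSIRT3-1 in HBL1 (0.56) and had 0.05 in each of the other lines. It has 50.7% unique windows, and exons of ATG10 overlap 53.7% of its coding sequence. RPL12 (adjusted p = 0.043) rose in Karpas422 (0.64) and had -0.24 in HBL1, where the third library with shSIRT3-1, at 74.4 CPM, lay far below the others at 148 and 150. RPL12 has 33.0% unique windows. With the first, second or the third replicate left out of all groups, 0, 1 and 14 members passed this test.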

How the results depend on the processing

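The counts of called members over the 3 lines stayed within 1.5 times under a pseudocount of 1, no filter, TMM or quantile scaling, edgeR and the replicate block (34 with shSIRT3-1, 10 with shSIRT3-2 and 34 between the hairpins). They moved with the lines: without Karpas422, 22 with shSIRT3-1 and 12 between the hairpins; without HBL1, 10 and 14; without OCI-Ly1, 4 with shSIRT3-2. Removing the length and GC trend gave 23 with shSIRT3-1, and 23 with the replicate block added. Leaving out low-uniqueness members, chosen after seeing the data, gave 4 with shSIRT3-2.

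Within lines, a pseudocount of 1 gave 0 with shSIRT3-2 in OCI-Ly1. No filter gave 8 in Karpas422 and 21 in HBL1 with shSIRT3-1, and 0 in OCI-Ly1 with shSIRT3-2. TMM scaling gave 3 in OCI-Ly1 with shSIRT3-1 and 11 in HBL1 with shSIRT3-2. Quantile normalization gave 6 in Karpas422 with shSIRT3-2 and 2 in OCI-Ly1 with shSIRT3-1. The edgeR likelihood ratio test called 26 and 5 members of Karpas422, 3 and 2 of OCI-Ly1, and 13 for the interaction. In Karpas422 the 26 with shSIRT3-1 were 25 higher and 1 lower (beside 16.2% and 17.7% of all genes). The 5 with shSIRT3-2 were 1 higher and 4 lower (beside 15.9% and 17.3%). In OCI-Ly1 the 3 and 2 were all lower (beside 7.83% and 9.86% of all genes), and none was higher (beside 5.63% and 6.01%). The replicate block gave 7 in Karpas422 with shSIRT3-2, where 8 of 9 same-number pairs passed the rule used, and 3 and 2 in OCI-Ly1. It moved no other total of calls by over 1.5 times. Except where a share is printed, the counts in this section are given without the shares of all genes under the same settings. The causes were not tested.

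With single libraries or replicates left out, the counts ran over the 3 lines from 9 to 54 (shSIRT3-1), 1 to 14 (shSIRT3-2) and 9 to 28 (between hairpins). Karpas422 gave 1 to 51 with shSIRT3-1 and 0 to 8 with shSIRT3-2, OCI-Ly1 gave 0 to 3 and 0 to 2, and HBL1 gave 0 to 71 and 0 to 46. The interaction gave 0 to 14. Between lines they ran from 44 to 66 (HBL1 and Karpas422), 26 to 50 (HBL1 and OCI-Ly1) and 27 to 45 (Karpas422 and OCI-Ly1). Of the values of the named members, 1737 kept their direction and side of the threshold, 305 lost the call, 9 gained it (all in the interaction) and 1 turned: RPL21 between HBL1 and Karpas422 was -0.050 under quantile normalization. SIRT3 kept its call in 167 and lost it in 13. The libraries held 1313712 to 3191767 reads on the members, but members listed near 1 CPM rest on few reads.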
